A study of Mus musculus with 2 samples.

Results

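Immediate early genes are the genes that cells switch on within minutes of a stimulus, before any new protein has to be made. Growth factors, stretch, wounding and the handling of tissue all induce them. In single cell studies of solid organs they are well known as a response that enzymatic dissociation can cause while the tissue is being taken apart. The program is transient: signalling kinases activate transcription factors that are already present, these switch on genes such as Fos and Egr1, and products of the same wave, among them Zfp36 and Dusp1, then remove the transcripts and switch the kinases off.

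Here 10 members of this program were followed through the newborn mouse lung, out of 26867 genes counted in both batches. They were fixed by name, as 4 subunits of the AP-1 transcription factor (Fos, Fosb, Jun, Junb), the related stress factor Atf3, the zinc finger factor Egr1, the early response genes Ier2 and Ier3, and the feedback genes Zfp36 and Dusp1. All 10 members were found in both batches and all 10 passed the filter on low counts that preceded the tests.

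The samples were whole lungs of female, wild type C57BL/6J mice at postnatal day 1 (PND1), 1 mouse in each of Batch 1 and Batch 2, with no treatment and no other group. Left and right lobes were minced on ice, digested with TrypLE and collagenase at body temperature, triturated and freed of red cells, and single cells were captured by Drop-seq, in which beads mark each transcript with a cell barcode and a unique molecular identifier (UMI). Every cell of both mice had gone through the digestion, so a level before dissociation was not measured. Levels are given as UMIs of a gene per 10000 UMIs of the cells pooled, with counting (Poisson) or exact binomial (Clopper-Pearson) 95% intervals that cover counting error only.

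The counts held 2389 cells of Batch 1 and 7555 of Batch 2, of which 2388 and 5615 had at most 10% mitochondrial UMIs and were kept, with 4432553 and 18232639 UMIs. The median was 1386.5 UMIs per cell in Batch 1 and 2014 in Batch 2, and the median mitochondrial share was 1.76% and 5.80%. No cell barcode was shared between the batches. Cells were clustered without the members and named from marker genes, so that AT1, pericyte and the other names stand for AT1-like or pericyte-like cells, and 19 types held at least 10 cells in each batch. Each of these 19 types had at least 5 of its markers at 2-fold or more over the other cells. The Matrix fibroblast-1 type was made up mostly of different clusters in the 2 batches (725 cells of Batch 1 but 135 of Batch 2 in the one, 19 and 876 in the other). The same held for AT2 (125 and 1 cells in the one, 22 and 521 in the other) and for AT1/AT2 (40 and 56 cells in the one, led by the AT1 genes Ager and Akap5, and 9 and 363 in the other). Possible doublets, with at least 2 UMIs of each of at least 2 markers of another lineage, were 42 cells of Batch 1 and 73 of Batch 2, and these were kept.

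Promoter sequence from RefSeq (GRCm38.p6) is used here for 8 of the 10 members, and Egr1 and Ier2 are named only. The 250 bases before the start of the 4 AP-1 subunits and of Dusp1 are shown because 4 of these 5 windows hold the core of the cyclic AMP response element, TGACG, on either strand, and Jun does not. The 5 windows lie at chr12:85473640-85473889 on the plus strand (Fos), chr7:19310046-19310295 on the minus strand (Fosb), chr4:95052223-95052472 on the minus strand (Jun), chr8:84978749-84978998 on the minus strand (Junb) and chr17:26508473-26508722 on the minus strand (Dusp1). They read 5′ to 3′ on the strand of the gene, the start site follows the last base, and capitals mark TGACG on either strand.
Fos: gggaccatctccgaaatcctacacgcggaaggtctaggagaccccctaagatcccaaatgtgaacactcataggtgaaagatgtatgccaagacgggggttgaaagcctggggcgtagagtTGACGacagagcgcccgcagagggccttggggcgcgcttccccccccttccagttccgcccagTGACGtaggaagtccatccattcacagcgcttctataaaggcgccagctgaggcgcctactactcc
Fosb: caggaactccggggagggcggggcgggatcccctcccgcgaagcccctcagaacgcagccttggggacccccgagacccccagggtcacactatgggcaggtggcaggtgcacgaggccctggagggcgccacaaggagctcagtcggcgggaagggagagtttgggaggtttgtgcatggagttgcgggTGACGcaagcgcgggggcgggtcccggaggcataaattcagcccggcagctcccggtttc
Jun: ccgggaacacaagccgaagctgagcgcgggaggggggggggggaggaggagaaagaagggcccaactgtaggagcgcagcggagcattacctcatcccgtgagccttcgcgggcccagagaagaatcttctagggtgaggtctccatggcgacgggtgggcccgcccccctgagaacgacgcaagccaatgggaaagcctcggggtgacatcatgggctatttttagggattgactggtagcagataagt
Junb: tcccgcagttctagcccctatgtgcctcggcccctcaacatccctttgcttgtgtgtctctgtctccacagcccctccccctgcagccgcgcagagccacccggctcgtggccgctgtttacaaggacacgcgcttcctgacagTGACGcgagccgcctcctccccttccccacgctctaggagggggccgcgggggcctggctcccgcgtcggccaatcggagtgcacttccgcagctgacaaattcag
Dusp1: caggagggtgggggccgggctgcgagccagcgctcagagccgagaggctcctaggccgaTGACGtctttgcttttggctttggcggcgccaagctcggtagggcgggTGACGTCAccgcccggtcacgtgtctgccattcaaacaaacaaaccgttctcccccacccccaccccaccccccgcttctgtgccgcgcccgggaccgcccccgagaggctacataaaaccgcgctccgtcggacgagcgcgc

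TGACG stood 125 and 62 bases before the start of Fos, 56 before Fosb, 102 before Junb, and 187, 139 and 136 before Dusp1, where the last 2 overlap on opposite strands as the palindrome TGACGTCA. With Atf3, where it lay 3 bases before the start on the other strand, 5 of 8 members held it, and 17.8% of 32851 promoter windows of the same length did. The AP-1 site TGANTCA was in 0 of the 8 windows and in 6.75% of all windows. The serum response factor site known as the CArG box was in the window of Zfp36 alone, 49 bases before the start, and in 1.47% of all windows, TATAAA was in Fos alone (28 bases before the start, 12.4% of all), and CCAAT was in Jun, Junb and Ier3 (33.8% of all). GGGCGG was in 7 of 8 members and 32.7% of all windows. These matches describe letters in a short window and say nothing of binding.

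Immediate early transcripts made up a larger share of the RNA in Batch 2 than in Batch 1 in every lineage and in all 19 types. Summed over the 10 members, they took 12.3 UMIs per 10000 in Batch 1 (95% counting interval 11.9 to 12.6) and 47.7 in Batch 2, a ratio of 3.89. Mesenchymal cells had 9.85 in Batch 1 and 74.2 in Batch 2, epithelial cells 6.87 and 38.6, endothelial cells 15.2 and 42.5, and immune cells 34.8 and 57.0. Immune cells thus had the highest level of the 4 lineages in Batch 1 and mesenchymal cells the highest in Batch 2. Of the immune cells, 36 of 177 in Batch 1 and 260 of 523 in Batch 2 belonged to an unnamed cluster led by Ear2 and Mpeg1, with 22.6 and 54.6 summed UMIs per 10000. With 1 mouse in each batch, mouse, handling and batch cannot be told apart, and the batches were not tested against each other.

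Among the types, the ratio of Batch 2 to Batch 1 ran from 1.45 in monocytes to 10.3 in Matrix fibroblast-1 cells (6.84 and 70.1 UMIs per 10000), AT2 cells apart. AT2 cells had 2.69 in Batch 1, a level like that of erythroid cells there (2.36), and 35.5 in Batch 2, and no fold is given for them. Macrophages stood first in both batches, at 62.7 and 123. Smooth muscle (27.4 and 121) and myofibroblasts (23.5 and 121) came after monocytes (46.7) in Batch 1, and were level with macrophages within counting error in Batch 2. Erythroid cells stood last in both batches (2.36 and 7.37), beside lymphatic endothelium (4.27 and 10.6), B lymphocytes (5.25 and 11.0) and mesothelial cells (5.64 and 14.5) near the foot of the order. Across the 19 types the order in one batch resembled that in the other, with a Spearman rho of 0.80, where the points of a batch share a library. Of the 18 neighbouring pairs in the order, the counting intervals overlapped in 15 in Batch 1 and 11 in Batch 2, so that much of the fine order within a batch is not resolved.

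**Figure D1:**
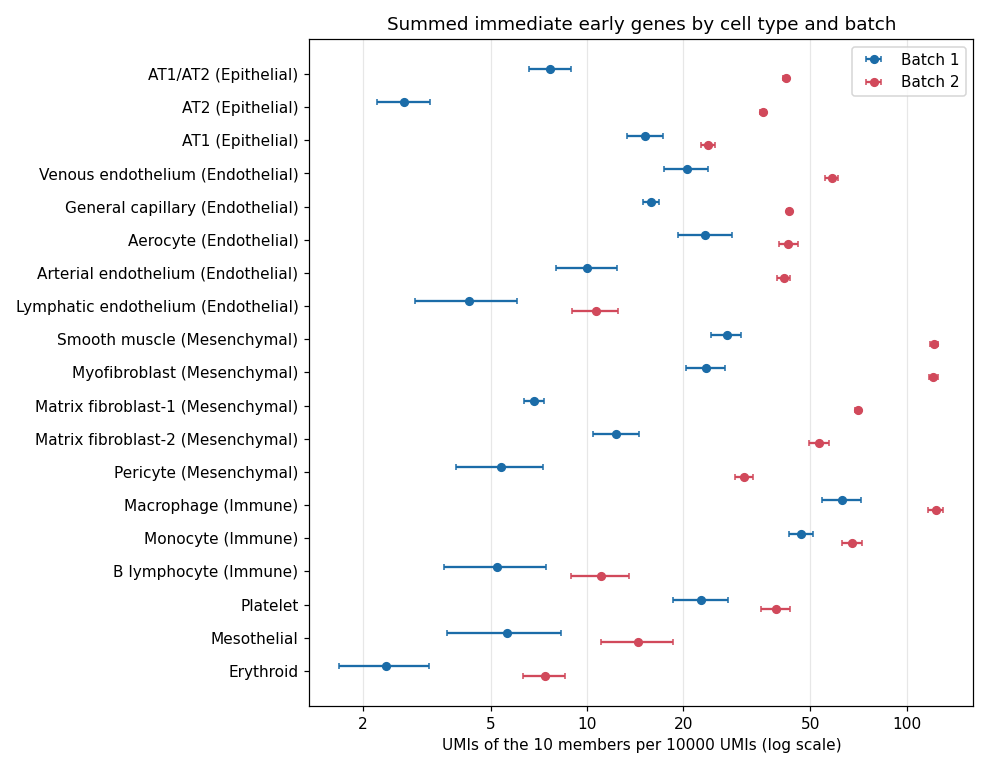
UMIs of the 10 members per 10000 UMIs (log axis) in each of the 19 types, with 1 point per batch and bars for the 95% counting interval. Every type sits higher in Batch 2, by 1.45-fold in monocytes and by 10.3-fold in Matrix fibroblast-1 cells, while AT2 cells of Batch 1 (2.69) lie beside the erythroid cells (2.36).

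Another 3 immune populations were left out of the tests because Batch 1 held under 10 of their cells. Basophil or mast cells had 111 UMIs per 10000 in 5 cells of Batch 1 and 149 in 10 cells of Batch 2, and neutrophils had 39.0 in 8 cells and 45.3 in 91 cells. Lymphoid cells of the T, NK and innate kind had 6.18 in 9 cells and 25.4 in 30 cells. These lie on both sides of the macrophages and monocytes, and the basophil or mast cells had the highest level of any named type in both batches.

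Fos, whose product pairs with Jun proteins to form AP-1, took 1.50 UMIs per 10000 of all cells in Batch 1 and 11.8 in Batch 2. In Batch 1 its level was highest in myeloid cells, at 18.5 in monocytes (16.1 to 21.2) and 13.1 in macrophages, with smooth muscle next at 4.44. In Batch 2 the levels were 37.4 in smooth muscle, 34.6 in macrophages, 27.4 in myofibroblasts, 24.3 in Matrix fibroblast-1 cells and 23.3 in monocytes. Matrix fibroblast-1 cells had stood at 0.910 and myofibroblasts at 1.15 in Batch 1. Arterial endothelium had 0 Fos UMIs in Batch 1, which allows up to 0.358 per 10000, and 8.03 in Batch 2. General capillary cells had 0.335 and 5.10, and B lymphocytes, at the foot of the order in Batch 2, had 0.486. Fos was higher in Batch 2 in all 19 types.

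Fosb, a close relative of Fos in the same AP-1 role, was sparse, at 0.111 and 0.727 per 10000. Macrophages led in both batches at 3.35 (1.67 to 5.99) and 3.07 (2.10 to 4.33), values that overlap, and smooth muscle followed in Batch 2 at 2.2. In Batch 1 it had 0 UMIs in 9 of the 19 types, so that its pattern over types is readable only in Batch 2, where the neighbouring intervals overlapped in all 18 pairs.

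Jun, the partner that can bind DNA with Fos or with itself, was spread more widely, at 3.07 and 9.95 per 10000 of all cells. Smooth muscle (9.93 in Batch 1, 30.3 in Batch 2), myofibroblasts (8.27 and 35.2) and aerocytes, the large capillary cells of gas exchange (8.56 and 16.1), were among the first 4 types in both batches. Monocytes, first for Fos in Batch 1, had 1.39 and 6.26 of Jun. Endothelial cells as a lineage had 5.67 and 11.6, against 1.40 and 7.56 in epithelial cells. The order of the types was alike in both batches (Spearman rho 0.80 over 19 types).

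Junb, an AP-1 subunit that can oppose Jun, had 1.21 and 4.26 per 10000. Monocytes (7.57 and 10.4), macrophages (5.48 and 14.6) and myofibroblasts (3.10 and 11.9) were among its first 4 types in both batches. Lymphatic endothelium (0.276 and 1.51) was low in both. AT1 cells (0.720 and 1.41) were near the median of the types in Batch 1 (0.941) and low in Batch 2 (median 3.90).

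Atf3, a stress-induced factor of the ATF family that often acts as a repressor, had 0.102 and 0.825 per 10000 and 0 UMIs in 8 types of Batch 1. Smooth muscle had 0.888 and 2.66, venous endothelium 0 (which allows up to 0.382) and 2.59, and monocytes 0.435 and 1.95. Matrix fibroblast-1 cells, high for Fos in Batch 2, had 0.112 of Atf3 there, with 22 UMIs in 1074 cells. The types' order for Atf3 was the least alike between batches of the 10 members (rho 0.38).

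Egr1, the zinc finger factor that follows serum and growth factor signals, had 1.15 and 5.25 per 10000. Its first type was not the same in the 2 batches. Macrophages led in Batch 1 at 11.0 (7.68 to 15.2) and had 5.18 (3.89 to 6.76) in Batch 2, while myofibroblasts had 2.18 and 19.7, smooth muscle 3.63 and 18.3 and Matrix fibroblast-2 cells 2.41 and 15.0. Monocytes had 4.35 and 2.37. Macrophages, monocytes and mesothelial cells were the 3 types in which Egr1 was lower in Batch 2, although the sum of the members was higher there.

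Ier2, a nuclear early response protein, had 1.97 and 4.49 per 10000 and the most similar order of types in the 2 batches (rho 0.86). Myofibroblasts (5.28 and 7.91), macrophages (5.18 and 7.87) and aerocytes (4.83 and 7.56) were its first 3 types in both, in the same order and with overlapping intervals. General capillary cells had 3.80 and 6.76 and arterial endothelium 2.75 and 6.36. Pericytes had 1.03 and 1.14, a ratio near 1, and AT1 cells 0.524 and 1.05.

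Ier3, an early response protein linked to cell survival, had 1.22 and 2.72 per 10000 and a pattern unlike the others. AT1 cells, the flat cells of the alveolar surface, stood first in Batch 1 at 8.31 (6.93 to 9.89) and had 4.32 (3.83 to 4.85) in Batch 2, while AT2 cells, which make surfactant, had 0.224 and 1.19. Macrophages had 5.18 and 19.6, and the few basophil or mast cells 9.52 and 38.7. Ier3 was lower in Batch 2 in 5 types, namely AT1, AT1/AT2 (3.10 and 2.95, from mostly different clusters), lymphatic endothelium, pericytes and smooth muscle, the largest number of any member. Lymphatic endothelium had 0 Ier3 UMIs in Batch 2, which allows up to 0.227 per 10000, and none of these 5 differences was tested. In epithelial cells as a lineage it had 2.53 and 2.41, the only member whose epithelial level did not lie higher in Batch 2.

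Zfp36 encodes tristetraprolin, which binds AU-rich transcripts and speeds their decay, and it had 0.758 and 3.59 per 10000. Macrophages (6.09 and 13.8), monocytes (3.66 and 7.61) and myofibroblasts (1.26 and 9.15) were high in both batches, and Matrix fibroblast-1 cells had 0.630 and 6.06. All 19 types had more in Batch 2.

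Dusp1, the phosphatase that inactivates MAP kinases, had 1.17 and 4.10 per 10000. Monocytes (4.96 and 8.37) and macrophages (4.57 and 11.7) were its first types in both batches. Matrix fibroblast-1 cells had 0.848 and 6.06, smooth muscle 1.13 and 6.16, and B lymphocytes (0.678 and 0.364) and platelets (1.80 and 1.1) were the 2 types that were lower in Batch 2, on 4 against 3 and 8 against 11 UMIs.

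**Figure D2:**
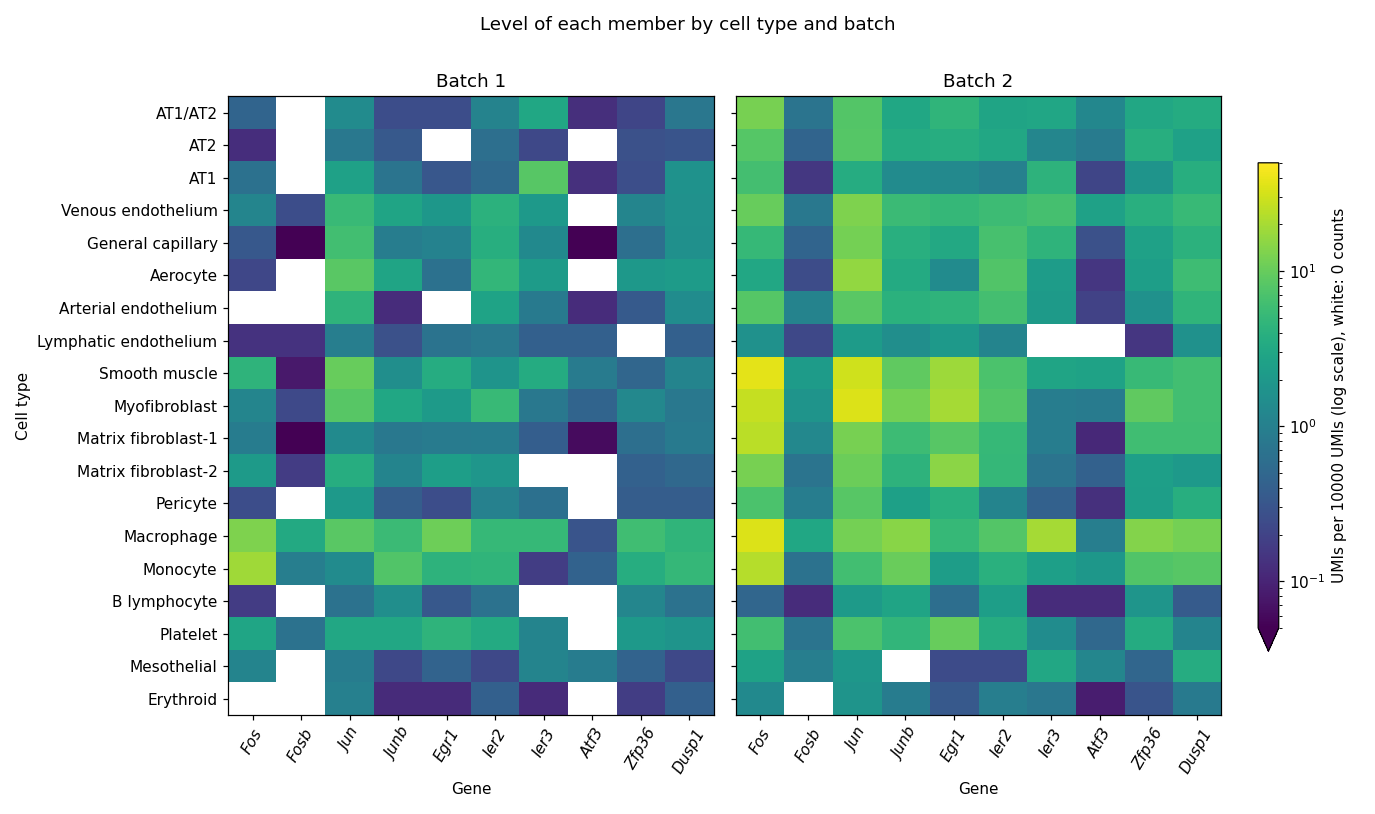
UMIs per 10000 UMIs of each member (columns) in the 19 types (rows) of each batch, on a log colour scale shared by both panels. Fos reaches 18.5 in monocytes of Batch 1 and 37.4 in smooth muscle of Batch 2, and Ier3 is the member whose AT1 level is higher in Batch 1 (8.31 against 4.32).

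The share of cells with a UMI followed the levels, and since Batch 2 was deeper, each cell was thinned to 600 UMIs, a depth that all 8003 cells reached. At that depth Fos was seen in 6.49% of Batch 1 cells and 39.8% of Batch 2 cells, against 11.4% and 63.1% with all UMIs. In mesenchymal cells the thinned share was 5.51% and 58.0%, in immune cells 39.5% and 57.2%, in epithelial cells 1.61% and 30.7%, and in endothelial cells 1.43% and 20.3%. Jun was seen in 24.2% of endothelial cells of Batch 1 and 44.1% of Batch 2 (53.1% and 76.1% with all UMIs). Egr1 lay the other way in immune cells, with 17.5% in Batch 1 and 7.65% in Batch 2 (28.2% and 19.3% with all UMIs). Free RNA in the droplets also gives UMIs, and no lung type is known to lack these genes, so the lowest type stands in for a background. In erythroid cells, with a median of 3748 and 5659 UMIs per cell, the summed members had 2.36 and 7.37 per 10000, and sums at or near this level, such as the 2.69 of AT2 cells in Batch 1, are not read as expression. The erythroid cluster was led by hemoglobin genes (Hbb-bt, Hba-a2, Hba-a1 and Hbb-bs), whose UMIs are in its total and lower its level per 10000. Single types were not recounted without hemoglobin, so the erythroid level is only a rough background for other types.

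Most cells of Batch 1 showed none of the 10 members at equal depth, while most cells of Batch 2 showed at least 1. The thinned share of cells with 0 members was 59.4% in Batch 1 and 20.7% in Batch 2. At least 3 members were seen in 4.52% of Batch 1 cells (exact interval 3.72 to 5.43) and 33.6% of Batch 2 cells (32.4 to 34.9), against 16.6% and 69.7% with all UMIs. By lineage the thinned share was 0.643% and 22.7% in epithelial, 3.74% and 26.0% in endothelial, 3.01% and 46.7% in mesenchymal and 24.3% and 41.1% in immune cells. No thinned cell showed more than 8 of the 10 members, and 1 cell of Batch 1 and 12 of Batch 2 showed 8.

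**Figure D3:**
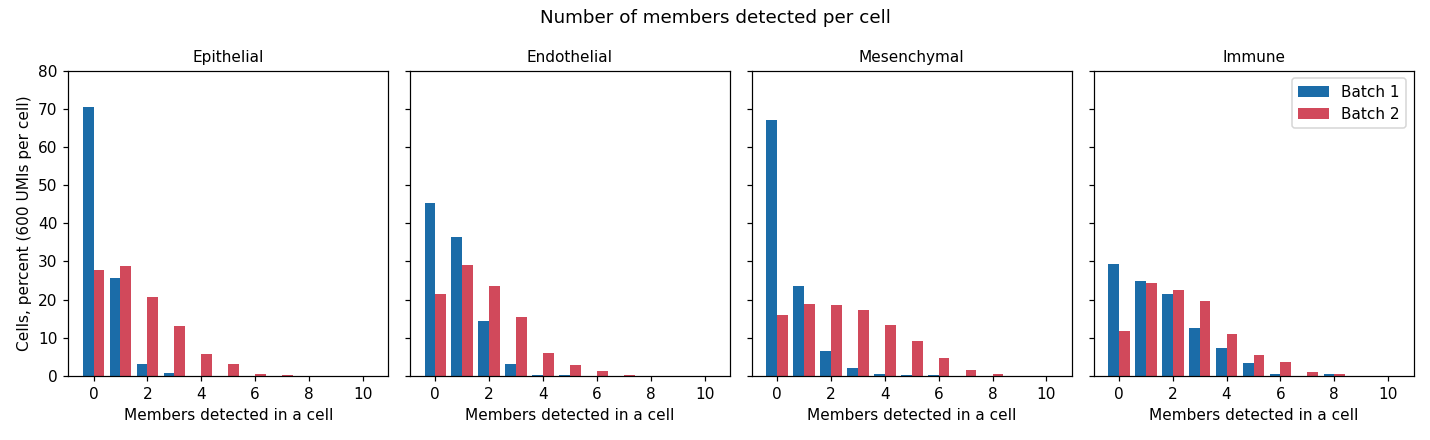
Percent of cells, thinned to 600 UMIs, by the number of members detected (horizontal axis), with a panel for each lineage and a bar for each batch. In epithelial cells 70.4% of Batch 1 and 27.8% of Batch 2 show 0 members, and in immune cells 29.4% and 11.9%.

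To ask in which lineage each member was higher, counts were summed by type and batch, which gave 38 sums of 32850 to 3540332 UMIs, and fitted in edgeR, where the batch was a block. The mean of a lineage's types was compared with the mean of the other 3 lineages. The only replicates are 2 mice. Each type had its own coefficient in the fit, and a lineage is the mean of its types. The adjusted p-values therefore measure how far the 2 sums of a type disagree once the batch is taken out. Differences between the types of a lineage do not enter that spread. The adjusted p-values come from edgeR's quasi-likelihood test with Benjamini-Hochberg adjustment over 6130 genes.

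Mesenchymal types (matrix fibroblasts, myofibroblasts, smooth muscle and pericytes) were higher for 3 AP-1 subunits and for Egr1. Of the 10 members 4 were higher and 0 lower, where 22.1% of all genes tested were higher, 13.1% lower and 35.3% called in either direction. Egr1 was higher by 1.43 (SE 0.29) on the log2 scale with an adjusted p of 1.4e-04, Fos by 1.01 (SE 0.28, adjusted p 0.0036) and Jun by 0.96 (SE 0.16, adjusted p 4.3e-06). Each of these 3 had the same sign in both batches, for Egr1 1.14 in Batch 1 and 1.99 in Batch 2. Fosb was higher by 0.94 (adjusted p 0.046), but in Batch 1 alone, with few UMIs, its difference was -0.08. Pericytes were low within the lineage, at 5.40 and 30.9 summed UMIs per 10000, and Ier3 stood at -1.10 (SE 0.52, adjusted p 0.097) for the lineage. With clusters at another resolution the calls of all 3 AP-1 subunits were lost (adjusted p 0.082 for Fos, 0.36 for Fosb and 0.18 for Jun), Egr1 stayed called and Ier3 was called lower (-1.73, adjusted p 0.041). DESeq2 kept Jun and Egr1 and lost Fos (adjusted p 0.055) and Fosb (0.46), Fosb was also lost at a mitochondrial limit of 5%, and without the batch block Fos (0.20) and Fosb (0.28) were lost.

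Immune types in the fit, which were monocytes, macrophages and B lymphocytes, were higher for Zfp36 and Junb and lower for Jun. That is 2 members higher and 1 lower of 10, where 12.7% of all genes tested were higher, 18.5% lower and 31.3% called in all. Zfp36 was higher by 1.71 (SE 0.28, adjusted p 6.4e-06) and Junb by 1.52 (SE 0.26, adjusted p 1.4e-05), and both differences were larger in Batch 1 alone (2.74 and 2.40) than in Batch 2 alone (1.06 and 0.97). Jun stood at -0.76 (SE 0.24, adjusted p 0.011), a call that was lost with DESeq2 (adjusted p 0.055). Without the batch block none of the 3 was called in edgeR (adjusted p 0.056 for Zfp36, 0.060 for Junb and 0.26 for Jun). Fos stood at 0.86 (SE 0.59, adjusted p 0.31) and Fosb at 0.80 (SE 1.01), and B lymphocytes had 0.169 and 0.486 Fos UMIs per 10000 beside the high monocytes and macrophages. Over all genes the median difference in this comparison was -0.35, and the 10 members are to be read against that.

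Taken as the mean of its types, the endothelial lineage was lower for Zfp36, Fos and Junb. Of the 10 members 3 were lower and 0 higher, where 12.3% of all genes tested were lower, 18.7% higher and 31.0% called in all. Fos stood at -1.67 (SE 0.38, adjusted p 5.6e-04) and Zfp36 at -1.61 (SE 0.28, adjusted p 9.8e-06). Each type weighs the same in that mean. Lymphatic endothelium had 0 Zfp36 UMIs in Batch 1, which allows up to 0.413 per 10000, and 0.151 in Batch 2. With its cells pooled, the lineage had 0.651 of Zfp36 in Batch 1, above the 0.321 of epithelial cells. In Batch 2 it had 2.51, below their 3.19. Junb stood at -0.65 (SE 0.23, adjusted p 0.023), a call that was lost with DESeq2, at a mitochondrial limit of 5% and with clusters at another resolution. Without the batch block Fos (adjusted p 0.18) and Junb (0.37) were not called. Jun, of which endothelial cells had more UMIs than epithelial cells in both batches, stood at 0.18 (adjusted p 0.52), and Ier2 at 0.40 (adjusted p 0.079).

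Taken as the mean of AT1, AT2 and AT1/AT2, the epithelial lineage was higher for Ier3 and lower for Junb and Ier2. AT2 cells lay below the median of the 19 types for Ier3 in both batches, so the higher mean came from AT1 and AT1/AT2 cells. That is 1 member higher and 2 lower of 10, where 29.0% of all genes tested were higher, 11.1% lower and 40.1% called in all (1779 higher and 678 lower, against 2325 and 1681 with DESeq2). Ier3 was higher by 1.64 (SE 0.29, adjusted p 1.2e-05), with 1.96 in Batch 1 alone and 1.17 in Batch 2 alone. Junb stood at -1.02 (SE 0.25, adjusted p 9.1e-04) and Ier2 at -0.96 (SE 0.20, adjusted p 1.2e-04), and Junb was not called without the batch block (adjusted p 0.23). Fos stood at -0.20 (SE 0.34, adjusted p 0.77), although it was lower in epithelial than in mesenchymal cells in both batches. The counts of 4, 3, 3 and 3 of 10 members lie near the shares of all genes called in the 4 comparisons.

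**Figure D4:**
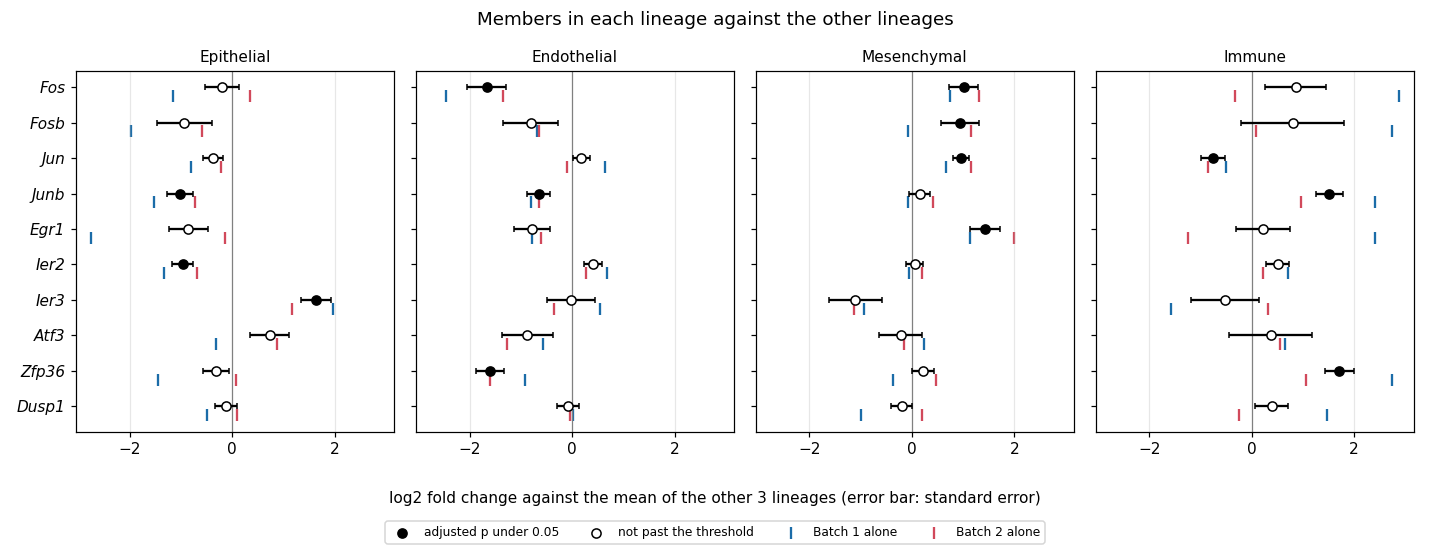
Log2 difference of each member between a lineage and the mean of the other 3 lineages, with bars of 1 standard error from edgeR's fit and filled points for adjusted p under 0.05. Vertical ticks give the difference in each batch alone. Mesenchymal types are higher for Egr1 (1.43), Fos (1.01), Jun (0.96) and Fosb (0.94). The mean of the epithelial types is higher for Ier3 (1.64), of which AT2 cells have little.

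Within the alveolar epithelium, AT1 cells were higher than AT2 cells for Ier3 and lower for Ier2. These were 2 of 10 members, where 7.88% of all genes tested were higher, 8.11% lower and 16.0% called in all. Ier3 differed by 3.01 (SE 0.56, adjusted p 9.5e-05), with 4.54 in Batch 1 and 1.61 in Batch 2, and Ier2 by -1.46 (SE 0.43, adjusted p 0.014), with -0.70 and -1.77. The AT2 cells of the 2 batches came mostly from different clusters. The summed members were higher in AT1 than in AT2 cells in Batch 1 (15.2 against 2.69, a level like that of erythroid cells) and lower in Batch 2 (23.9 against 35.5), and for Fos, Jun, Junb, Egr1 and Atf3 the sign of the AT1 to AT2 difference was opposite in the 2 batches. AT2 cells of Batch 1 had 0 UMIs of Egr1 and Atf3, which allows up to 0.0746 per 10000. All epithelial cells of Batch 1 held 13 and 5 UMIs of these genes, so their signs there rest on few counts. The Ier2 call was lost with DESeq2, at a mitochondrial limit of 5% and without the batch block.

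Between the 2 capillary types, general capillary cells and aerocytes, 0 of 10 members differed in edgeR's test, 0 had an unadjusted p under 0.05 and 0 were called by DESeq2, where 0.897% of all genes tested were called (0.587% higher, 0.310% lower). Jun stood at -0.24 (SE 0.39) and Ier2 at -0.07 (SE 0.39), and the standard errors of the 10 members ran from 0.39 to 1.16. With RLE scaling in place of TMM the median of all genes moved from 0.18 to -0.02 and the genes called split into 18 higher and 30 lower in place of 36 and 19. Pericytes were lower than Matrix fibroblast-1 cells for Ier2 alone, 1 of 10 members lower and 0 higher, where 7.0% of all genes tested were lower, 6.85% higher and 13.8% called in all. Ier2 stood at -1.59 (SE 0.46, adjusted p 0.014), but at -0.13 in Batch 1 and -2.28 in Batch 2, and the call was lost with DESeq2, at a mitochondrial limit of 5% and without the batch block. Here RLE scaling moved the median of all genes from -0.09 to 0.09, and the genes called split into 512 higher and 317 lower in place of 420 and 429.

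With sums of at least 5 cells, a minimum chosen after seeing the data, neutrophils could be set against macrophages, on 8 neutrophils of Batch 1 and 91 of Batch 2. Neutrophils were lower for Ier3, by a log2 difference of -2.50 (SE 0.63, adjusted p 0.0067 in edgeR's quasi-likelihood test with Benjamini-Hochberg adjustment), 1 of 10 members where 6.65% of 6598 genes tested were called (2.82% lower, 3.83% higher). Fosb stood at -2.30 (SE 0.90, adjusted p 0.12) and Jun at -1.24 (SE 0.51, adjusted p 0.15), while Junb (0.09) and Ier2 (0.09) stood near 0.

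Within types, the members were among the genes with the largest difference between the batches. In the same fit the Batch 2 to Batch 1 difference was 3.30 on the log2 scale for Fos, the 6th highest of 6130 genes, 2.81 for Fosb (8th), 2.23 for Zfp36, 2.18 for Atf3, 2.14 for Egr1, 1.92 for Junb, 1.87 for Dusp1, 1.65 for Jun, 1.10 for Ier2 and 0.99 for Ier3 (287th). Past 2-fold were 9 of the 10, with a median of 2.03, where 4.57% of all genes tested were past 2-fold higher and the median of all genes was 0.02. This difference carries no test, since each batch is 1 mouse. The mitochondrial share and the depth moved with it, and their part in it was not tested. At a matched mitochondrial share of 2% to 5%, Matrix fibroblast-1 cells had 6.59 summed UMIs per 10000 in Batch 1 and 73.6 in Batch 2, general capillary cells 14.4 and 45.6, and AT2 cells 3.95 and 36.1. Within Batch 2 the same 3 types had 68.4, 40.7 and 35.2 at 5% to 10%, slightly less than at the lower share. Split at the median depth of each type, the deeper cells of Batch 2 had 75.4, 45.9 and 37.7, and the others 59.7, 31.6 and 29.5. In Batch 1 the deeper cells had 7.61, 16.2 and 2.27, and the others 5.49, 15.1 and 3.56, where AT2 cells went the other way.

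The other lists of the program did not all show the same difference. Of 26 other immediate early genes tested (36 were listed), 15 were past 2-fold higher in Batch 2, with a median of 1.22, led by the orphan receptor Nr4a1 at 2.46, while Klf10 was lowest at -0.52. Of 6 other AP-1 and ATF subunits 1 was past 2-fold, Fosl2 at 1.51, and the median was 0.37. The 15 upstream kinases and factors, which relay the signal, had 0 past 2-fold and a median of 0.09. The 8 other feedback phosphatases and decay factors had 0 past 2-fold and a median of 0.13. Among 9 heat shock chaperones, another stress program, 1 was past 2-fold, Hspb1 at 1.51, and the median was 0.21.

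Between lineages these lists were mixed in direction. In mesenchymal types 6 of 26 other immediate early genes were higher and 4 lower (22.1% and 13.1% of all genes tested), among them the matricellular genes Ctgf (2.23, adjusted p 9.9e-04) and Cyr61 (2.05, adjusted p 7.1e-09). The difference of Ctgf was larger in epithelial types (3.87), so it is not a mesenchymal trait alone. In endothelial types 5 were higher and 8 lower (18.7% and 12.3% of all), with Klf2 (2.83, adjusted p 3.3e-12) and Klf4 (2.59, adjusted p 5.2e-13), the factors known for responding to blood flow, at the top. In epithelial types 10 were higher and 5 lower (29.0% and 11.1% of all), with Errfi1, a feedback inhibitor of the EGF receptor, at 4.19 (adjusted p 2.6e-16), and in immune types 4 were higher and 3 lower (12.7% and 18.5% of all), with Nr4a1 at 1.99 (adjusted p 0.0061). The median of this list was 0.40 in epithelial, -0.71 in endothelial, 0.25 in mesenchymal and -0.04 in immune types, against 0.10, -0.0012, 0.04 and -0.35 over all genes tested. The 8 other feedback genes had a median of 1.04 in mesenchymal types, with 4 higher, among them Dusp5 (2.22, adjusted p 0.015) and Spry2 (1.44, adjusted p 0.012), and 1 lower. Spry2 stood higher still in epithelial types (3.28) and low in immune types (-4.12), which are part of the mean that mesenchymal types were set against.

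Individual cells tended to show several members at once. Over the 8003 thinned cells, the number of cells with both genes of a pair was set against the number given by each gene's share within its type and batch. The median ratio over the 45 pairs of members was 1.28, and 44 of 45 pairs were above 1. Over 1701090 pairs of genes detected in at least 5% of cells the median was 1.00, the 90th percentile 1.13 and the 99th 1.31. Fosb (0.586% of thinned cells in Batch 1 and 3.62% in Batch 2) and Atf3 (0.796% and 2.94%) were kept as members below that 5%. Their pairs are thus sparser than the pairs they are set against. Within Batch 1 the 90th and 99th percentiles of all pairs were 1.23 and 1.58, and within Batch 2 they were 1.15 and 1.38. The median of the member pairs was 1.26 in Batch 1, little past that 90th percentile, with 37 of 45 pairs above 1. In Batch 2 the median was 1.28, with 45 of 45. With all UMIs and strata of depth added it was 1.13 over the members, 1.07 over all pairs and 1.19 at their 90th percentile, so that the members' median lay below that percentile in this setting, and without the possible doublets it was 1.27.

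Fos and Egr1 were seen together in 774 cells against 555 expected, a ratio of 1.39, and Fos and Jun in 1112 against 926, a ratio of 1.20. The highest ratios belonged to sparse pairs, 2.32 for Fosb and Atf3 on 18 cells against 7.76, and 1.80 for Fosb and Egr1 on 102 cells against 56.7. Ier2 and Atf3 were lowest at 0.99. By lineage in Batch 2 the median was 1.38 in epithelial cells over the 38 pairs with at least 5 cells expected, 1.38 in endothelial cells over 39, 1.28 in mesenchymal cells over 43 and 1.14 in immune cells over 40. In Batch 1 it was 1.57 in mesenchymal cells and 1.02 in endothelial cells, over 11 pairs each, and 1.15 in immune cells over 17.

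**Figure D5:**
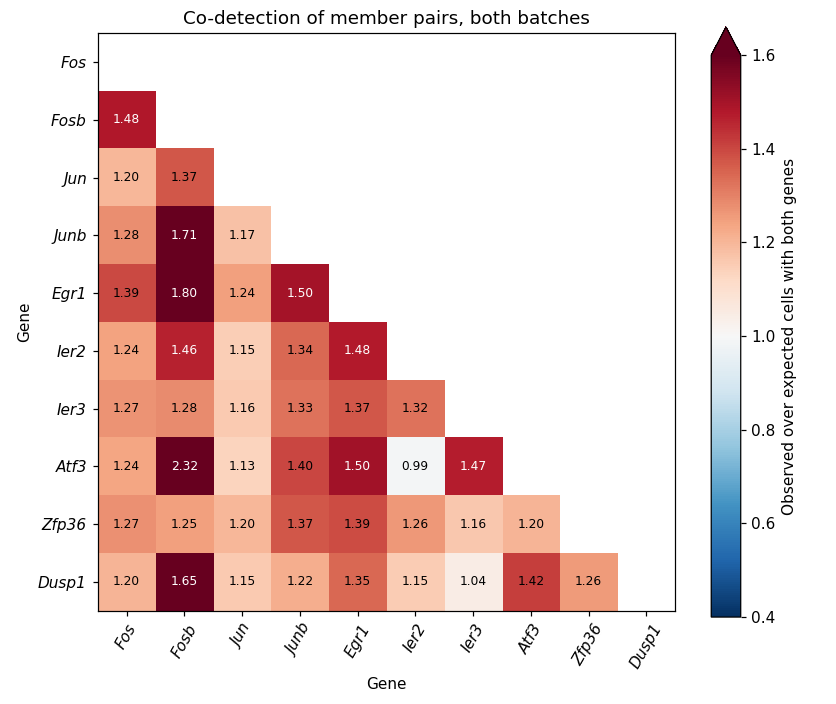
Observed over expected number of cells with both members of each pair, for all cells thinned to 600 UMIs, with the expected number taken within type and batch. The 45 pairs range from 0.99 for Ier2 with Atf3 to 2.32 for Fosb with Atf3, and 44 of them lie above 1.

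The link between Fos and the other members can be read within one type. In Batch 2, 39.5% of the Matrix fibroblast-1 cells with a thinned Fos UMI also had an Egr1 UMI, against 11.9% of those without. Not every gene and group showed such a link in Batch 2. Egr1 was in 7.36% of immune cells with Fos and 8.04% of those without. Junb was in 4.65% of pericytes with Fos and 9.73% of those without, on 2 and 11 cells. Over all cells of Batch 2 the share with Jun was 48.3% in cells with Fos and 32.5% in cells without, and the share with Zfp36 28.8% and 12.8%. Of the cells of Batch 1 with Fos, 26.5% had Egr1 against 4.30% of the rest. Cells with Fos differ in type from cells without, which the ratios within strata take into account and these shares over all cells do not.

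Among genes outside the members, Socs3, an inhibitor of cytokine signalling, had the highest median ratio with the 10 members (1.40), followed by Btg2 (1.28), Cyr61 (1.27), Gadd45g (1.23), Hes1 (1.20) and Plk2 (1.18), of 1835 genes, and 4 of these 6 (Socs3, Btg2, Cyr61, Gadd45g) were on the list of other immediate early genes. The 14 genes of that list seen often enough had a median of 1.08, and the 8 heat shock chaperones a median of 1.00. Over the 38 sums, with each batch centred, Fos followed the mean of the other 9 members most closely (Pearson r 0.81), then Zfp36 (0.75), Egr1 (0.74) and Junb (0.71), while Atf3 (0.40) and Ier3 (0.35) followed it least. The genes most like the members' mean were Atp6ap2 (r 0.66), Snap23 (0.62), Scand1, Tgfbi and C1qa (0.61 each), Ogfrl1, Nr4a1 and F13a1 (0.60 each), of 3524 genes compared. These correlations describe 38 sums that share mice and libraries, and C1qa and F13a1 are genes of macrophages and monocytes.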

How the data were processed

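Lungs of 2 PND1 mice were profiled by Drop-seq, 1 mouse per batch. The authors deposited UMI counts per gene and cell, made by aligning reads to mm10 with bowtie2 (version 2.2.7 in the submitters' processing notes) and counting over exons with Drop-seq tools, without normalization. Cells with over 10% mitochondrial UMIs were removed here. Cells were clustered (2500 variable genes scaled within batch, 40 principal components, 15 neighbours, Leiden at resolution 2) without the members, the other gene lists and cell cycle, mitochondrial, hemoglobin, ribosomal and histone genes, and named from fixed markers. The authors' own cell types were at hand for a part of Batch 1 only and were used for an alternative level alone. The sum over the 1998 cells they list was 12.2 per 10000, which does not depend on their types. With their major types it was 6.52 in epithelial, 14.7 in endothelial, 9.41 in mesenchymal and 34.4 in immune cells, against 6.87, 15.2, 9.85 and 34.8 here.

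UMI counts were summed by type and batch (at least 10 cells), filtered with filterByExpr, scaled by TMM and fitted in edgeR 4.0.16 (R 4.3.3) with type and batch, with calls at an adjusted p under 0.05 over 6130 genes. The batch entered as the replicate block because types of a batch come from the same mouse. Deviations of types within a batch had a median correlation of 0.15 over 171 pairs of types, 135 of them over 0.1. Single-batch differences used log2 CPM. Co-detection and shares used cells thinned to 600 UMIs with a fixed seed, with numpy 2.4.6 and scipy 1.17.1 under Python 3.11.15, and clustering used leidenalg 0.10.2 and igraph 0.11.9. On simulated counts for the mesenchymal comparison with 4570 genes tested, 155 of 163 changed genes tested were found, 87.9% of those changed by 1 on the log2 scale, and 14 of 169 calls were wrong. The simulated counts had the same dispersion for every gene and the same batch effect in every type. Apart from the added mesenchymal changes, types did not differ in them, so these rates need not hold for the real counts.

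Alternatives were no replicate block, DESeq2 1.42.0, RLE scaling, no gene filter, a limit of 5%, removal of possible doublets, another clustering resolution and each batch alone. Another 2 were chosen after seeing the data. Genes named are the 10 members, of each list the 3 called genes with the largest difference in a comparison and the same sign in both batches, and the 8 genes most like the members' mean. List genes given for the batch difference and for co-detection (Nr4a1, Klf10, Fosl2, Hspb1, Socs3, Btg2, Gadd45g, Hes1, Plk2) were chosen after their values were seen. The members and lists were chosen with earlier results of these data known. Neutrophils against macrophages was planned and could not be fitted at 10 cells per sum.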

Additional observations from a re-analysis of the deposited data

Results flagged for a closer look

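The members were also counted in the 1940 cells of Batch 2 that lay over the mitochondrial limit and entered no comparison. There the 10 members took 37.8 UMIs per 10000 (37.2 to 38.3), above the 7.37 of the erythroid cells of Batch 2, the lowest named type, and below the 47.7 of the Batch 2 cells that were kept. Fos had 11.3 in them and 11.8 in the kept cells, Jun 7.49 and 9.95, Egr1 3.59 and 5.25, and Ier3 2.04 and 2.72. Without mitochondrial UMIs in the total they had 44.0, against 39.8, 52.9 and 49.6 in the kept cells of Batch 2 with up to 2%, 2% to 5% and 5% to 10% mitochondrial UMIs. Only 1 cell of Batch 1 lay over the limit.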

How the results depend on the processing

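All 16 calls of members were kept with RLE scaling, with no gene filter, without the possible doublets and under both alternatives chosen after seeing the data (sums of at least 5 cells, unnamed clusters also fitted). Of the 16, 12 were kept at a mitochondrial limit of 5%, 12 with clusters at another resolution, 10 with DESeq2 and 6 with no replicate block, and 0 turned direction. The block pairs types of the same mouse. Without the replicate block 1 member was called in endothelial types, 2 in mesenchymal, 0 in immune, 1 in AT1 against AT2 and 0 in pericytes against Matrix fibroblast-1, and the genes called fell from 980 to 526, from 849 to 439 and, for the capillary types, from 55 to 3. With no gene filter 5 members were called in epithelial types, 4 in AT1 against AT2, 1 in the capillary types and 5 in pericytes, and 4440 genes in place of 2457 in epithelial types (4006 with DESeq2) and 166 in place of 55 in the capillary types. A limit of 5% left 1 call in AT1 against AT2 and 0 in pericytes, where 562 genes were called. DESeq2 called 2 members in mesenchymal types, 1 in AT1 against AT2 and 0 in pericytes, another resolution called 2 in mesenchymal types, and sums of at least 5 cells called 5 in immune types. These member counts stand without the share of all genes called in the same setting. They are therefore not read as particular to the members, and the cause of the changes was not tested. In single batches, values with no test, the Fosb difference of mesenchymal types ran from -0.076 (without Batch 2) to 1.14, the 1 call of the 16 whose sign differed between batches.

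The summed level of Batch 1 was 12.8 as a mean over cells and 13.4 without mitochondrial and hemoglobin UMIs in the total, and that of Batch 2 was 51.0 and 51.4, 50.1 at a limit of 5% and 45.6 with no limit. The co-detection median was 1.26 to 1.28 in single batches, 1.13 with all UMIs and strata of depth, 1.22 at 1000 UMIs and 1.44 with strata of batch alone. The share of cells with at least 3 members was 16.6% and 69.7% with all UMIs and 9.19% and 50.1% at 1000 UMIs, 38.3% in Batch 2 at a limit of 5%, and at least 5 members were seen in 0.628% and 8.87%.

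Depth limits the sparse members, since Fosb had 49 UMIs and many types of Batch 1 none. Each batch is 1 mouse, so neither batch nor handling can be separated from the animal, and no undissociated lung was measured.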

Other observations

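Cells in clusters that markers did not name also held the members. A cluster led by Sfrp1 and Lox had 10.6 summed UMIs per 10000 in 86 cells of Batch 1 and 70.1 in 190 cells of Batch 2, close to Matrix fibroblast-1 cells in Batch 2. A cluster led by the muscle genes Myl7 and Tnnt2 had 10.8 and 41.7, and cells with AT1 and endothelial markers together had 13.7 and 31.6.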
